A study of Mus musculus with 8 samples.

Results

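Interferon-stimulated genes are the genes that cells switch on when an interferon is bound at their surface. A set of 33 such genes was followed in RNA from sorted cardiac macrophages of the mouse, chosen by symbol from a table of 24516 genes. It holds sensors of foreign RNA and DNA, the transcription factors that carry the signal, antiviral effectors of the IFIT, OAS and Mx families, GTPases that act against pathogens in vacuoles, and surface proteins such as Siglec1. All 33 symbols were in the table. Of these genes, 23 had enough counts to be tested and 21 of the 23 had a count in each of 8 libraries. Irf7, Oas2 and Mx2 were listed at 0 in 8 of 8 libraries, and Ifih1, Irf9, Mx1, Ifi47, Gbp3, Gbp7 and Ifi44 had too few counts for a test.

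Type I interferons bind a receptor made of Ifnar1 and Ifnar2, whose kinases Jak1 and Tyk2 act on Stat2. A complex that holds Stat2 and Irf9 then binds the interferon-stimulated response element (ISRE) in the promoters of its target genes. Interferon gamma acts through its own receptor and another element, the gamma-activated site (GAS). Many target genes are sensors or transcription factors of the same pathway, and Usp18 is a target that dampens the receptor. Resident macrophages, those of the heart included, keep a low tonic level of this programme without infection.

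Both groups came from C57BL/6 hearts at postnatal day 28, and all 8 libraries share 1 genotype, Nfatc1Cre/+; Rosa26Tomato reporter/+. In these mice Cre is made where Nfatc1 is active, which in the heart is the endocardium, and a cell in which Cre has acted keeps the Tomato reporter, as do its descendants. The endocardially derived macrophages (EcTM, 4 libraries) and the macrophages without that origin (non-EcTM, 4 libraries) were separated by flow cytometry, and the labels do not give the gate. Titles tie each EcTM library (E) to the non-EcTM library (N) with the same digits, giving the pairs E591/N591, E592/N592, E604/N604 and E606/N606. The labels do not say whether a pair is an animal, a litter or a pool. In models with the pair as a term, p-values are measured against how the difference within a pair varies from pair to pair. That spread may be in part technical. The p-values of the pairs thus do not measure a spread between animals, litters or pools. Anything that both libraries of a pair share cannot be told apart from the pair itself.

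Counts in genes summed to 2152425 to 2937464 per library. Of all genes 10197 (41.6%) were at 0 in each library. Stat3 and Tyk2, which most cells use, were among them, so that a gene listed at 0 is not taken to be silent. Among the 33 genes the total over 8 libraries had a median of 733 counts where 1 transcript is curated (19 genes), 212 counts where 2 are (9 genes) and 41 counts where 3 or more are (5 genes). Over all protein-coding genes the medians were 18, 7 and 7 counts in turn, and 36.6%, 39.2% and 38.2% were at 0, so that the table as a whole showed a smaller difference. Macrophage markers (9 genes, among them Csf1r, Adgre1 and C1qa) summed to 21449 to 23968 CPM (counts scaled to a common library size) and all 9 were tested, so that the labelled cell type was borne out by its markers. The sum hides differences of single markers between pairs, given below for Lyz2 and Cx3cr1. The 33 genes together took 0.157% to 0.421% of the counts of a library.

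Promoter sequences of genes named for the tests of pairs or groups described below are shown first, because a shared element is what defines most targets of the interferon pathway. Windows from 250 bases before to 50 bases after an annotated start were available for 26 of the 33 genes (RefSeq, GRCm38.p6). The ISRE core, which is TTTC, any 2 bases and TTTC again, was searched on both strands, so that it reads GAAA, 2 bases and GAAA where it lies on the other strand, and neighbouring matches may overlap. It was found in 17 of 26 genes (65.4%) and in 3.99% of all 27025 genes with a window. The GAS motif TTCNNNGAA was found in 5 of 26 genes (19.2%) and in 9.55% of all genes. A match is a description of letters and not a measured binding site. Of the other tested genes, Isg15, Bst2, Igtp, Gbp2, Irgm1 and Ddx58 hold a core too and are not printed. They were not named for these tests, or the stretch overlaps an annotated exon or its core reaches past the start. The stretches below are the parts of the windows before their annotated start that lie within 25 bases of a match. They are written 5′ to 3′ on the strand of the gene, with the ISRE core in capitals. For Ifit3 and Slfn5 that start lies inside the span annotated for the gene, and so does the whole stretch. The stretch of Oas1a lies partly inside the span of its gene.

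Oas3: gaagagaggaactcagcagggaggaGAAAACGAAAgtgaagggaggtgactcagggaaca
Ifit3: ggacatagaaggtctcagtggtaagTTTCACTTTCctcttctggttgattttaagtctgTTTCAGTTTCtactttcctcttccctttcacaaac
Oas1a: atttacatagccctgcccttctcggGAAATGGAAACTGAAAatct
Slfn5: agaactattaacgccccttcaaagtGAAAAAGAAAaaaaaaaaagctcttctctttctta
Stat2: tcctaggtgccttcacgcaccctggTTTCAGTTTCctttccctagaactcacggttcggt
Trim30a: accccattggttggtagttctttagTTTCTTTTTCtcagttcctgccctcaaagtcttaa
Ifit1: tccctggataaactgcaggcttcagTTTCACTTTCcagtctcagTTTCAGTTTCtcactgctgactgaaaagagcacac
Rsad2: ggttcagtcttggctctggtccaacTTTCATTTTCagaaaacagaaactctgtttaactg

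The stretch of Oas3 lies at chr5:120777700-120777759, minus strand, and its core begins 75 bases before the start. Ifit3 has a pair of cores at chr19:34583348-34583441, plus strand, and Ifit1, its neighbour on chromosome 19, has a pair at chr19:34640760-34640838, plus strand. Oas1a has a pair of overlapping cores at chr5:120907526-120907570, minus strand, the nearest to a start among those printed. The core of Slfn5 (at chr11:82951922-82951981, plus strand) runs into a stretch of A, and that of Stat2 (at chr10:128270251-128270310, plus strand) is the farthest from the start, 222 bases before it. The cores of Trim30a (at chr7:104465195-104465254, minus strand) and Rsad2 (at chr12:26456538-26456597, minus strand) are single in the windows shown, and the window of another annotated start of Trim30a (at chr7:104446076-104446375, minus strand) holds a core too. Of the printed genes, Oas3, Ifit3, Slfn5, Stat2 and Trim30a passed edgeR's joint test of the pairs described below, Oas1a passed only in the contrast of 1 pair, and Ifit1 and Rsad2 passed in neither. With a window at hand, the core was present in 8 of 10 genes that differed between pairs in at least 1 test and in 6 of 9 tested genes that did not pass.

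The interferon-stimulated genes varied together, and the pair a library belonged to, not its group, went with their level. They were high in both libraries of pair E604/N604, intermediate in those of E591/N591, lower in those of E592/N592 and lowest in those of E606/N606. For each gene the log2 CPM of a library was set against the gene's own mean over 8 libraries. The median of this deviation over the 23 genes was 0.77 in E604 and 0.71 in N604, 0.30 in E591 and 0.35 in N591, -0.14 in E592 and -0.42 in N592, and -0.69 in E606 and -0.61 in N606. Both groups gave the same order of pairs. Over all 7667 tested genes the median deviation was 0.02 to 0.03 in each library. Of the 23 genes, 22 were above their own mean in E604 and 22 in N604, 18 and 16 in E591 and N591, 7 and 2 in E592 and N592, and 0 and 4 in E606 and N606.

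**Figure D1:**
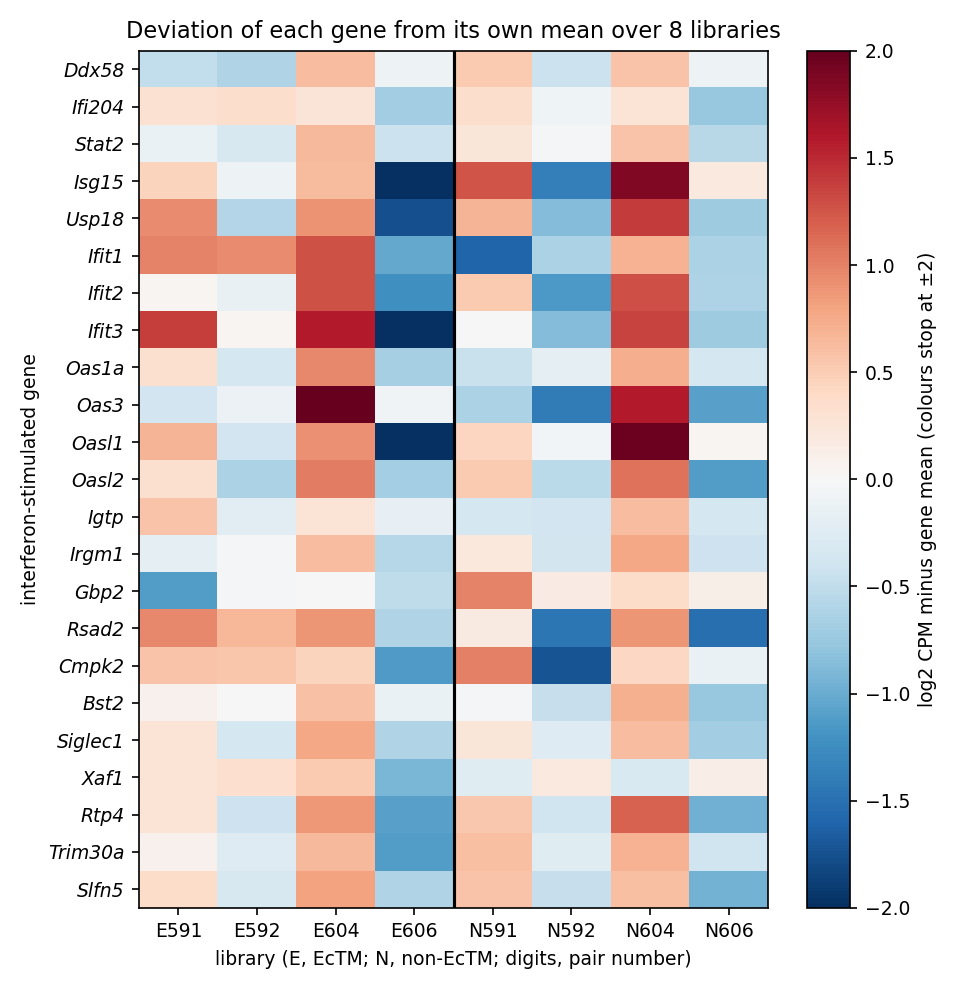
Each row is 1 of the 23 tested interferon-stimulated genes and each column 1 library, with the EcTM libraries left of the black line. Colour gives log2 CPM minus the gene's mean over 8 libraries, red above and blue below, and the columns of E604/N604 are mostly red (22 of 23 genes above their mean in each) whereas those of E606/N606 are mostly blue.

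The joint test of the 4 pairs in edgeR's quasi-likelihood model, with the group as a term, called 13 of the 23 genes at an adjusted p under 0.05 (56.5%), whereas it called 233 of 7667 tested genes (3.04%). The 13 were Ddx58, Ifi204, Stat2, Usp18, Ifit2, Ifit3, Oas3, Oasl2, Irgm1, Siglec1, Rtp4, Trim30a and Slfn5. At an unadjusted p under 0.05 there were 17 genes, against 11.2% of all tested genes. Each pair was then set against the mean of the other 3. Brackets give the share of all tested genes that passed in the same direction. Of the 23 genes, E604/N604 was higher for 13 (0.730%) and lower for 0 (0.483%), and E606/N606 was lower for 7 (0.522%) and higher for 0 (0.509%). Pair E591/N591 was higher for 3 genes (1.19%) and lower for 0 (0.509%), and E592/N592 was lower for 3 (0.756%) and higher for 0 (0.496%). In the contrast of E604/N604 all 23 fitted differences were above 0, with a median of 0.93 on the log2 scale, and in that of E606/N606 all 23 were below 0, with a median of -0.97. The medians were 0.37 for E591/N591 and -0.42 for E592/N592. The 4 contrasts share libraries and are not independent of each other. The set was proposed with results of these data in view, so the counts are a description of it.

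These counts depended on the libraries of E604/N604 and E606/N606. Of 12 fits that each left out 1 pair or 1 library, the joint test called 7 genes without E604 and N604, 8 without E606 and N606, 8 without E604, 8 without N604 and 8 without E606, and 10 to 14 in the others, while over all genes it called 146 to 199. The count higher in E604/N604 was 6 without E606 and N606 and 5 each without E604 or N604, and the count lower in E606/N606 was 3 without E606. Where 1 library of a pair was left out, the other was assumed to vary as the remaining libraries do. Usp18, Oasl2, Siglec1, Rtp4, Trim30a and Slfn5 were called by the joint test in 12 of 12 of these fits. Oas3 was lost without E604 and N604, Ifi204 without E606 and N606 or E606, and Ifit2 without either or E604 and N604. Stat2 was lost without 1 or both libraries of E604/N604 or of E606/N606, Irgm1 without the same and also without N592, and Ddx58 without 1 or both libraries of any pair but E591/N591. Ifit3 was lost without any of these 3 pairs and without E592, E604, E606, N592 or N604.

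The pair also went with the sex of the mice and with traces of other cells. Xist, made from the inactive X chromosome, had 1 count in E592, 8 in N592 and 935 to 1682 elsewhere, and the Y-linked gene Ddx3y had 260 and 307 counts there and 1 to 7 elsewhere, so that this pair was male and the other 3 female. The part of sex in the differences between pairs was not tested, and with 1 male pair it cannot be told apart from that pair. Endothelial markers (10 genes, 4 at 0 everywhere, 5 tested) summed to 913 CPM in N591 and 346 CPM in E591 and to 42.1 to 213 CPM elsewhere. They were highest in E591/N591 in both groups. Fibroblast markers (5 genes, 1 at 0) did likewise, with 125 CPM in E591, 183 CPM in N591 and 21.1 to 39.5 CPM elsewhere. Mural cell markers (5 genes, 2 at 0, 3 tested) summed to 90.0, 67.0, 87.7 and 72.3 CPM in the EcTM libraries of E591/N591, E592/N592, E604/N604 and E606/N606 in turn, and to 235, 61.1, 169 and 92.8 CPM in the non-EcTM libraries, so that in both groups E591/N591 and E604/N604 lay above the other pairs, as they did for the interferon-stimulated genes. Cardiomyocyte markers (8 genes, 2 at 0, 6 tested) summed to 135 CPM in E591 and 159 CPM in N591 and to 75.4 to 131 CPM elsewhere. Ly6c monocyte markers (5 genes, 1 at 0, 1 tested) summed to 21.3 CPM in E606 and 43.2 CPM in N606, the lowest library of each group. They summed to 48.6, 53.2 and 54.4 CPM in E591, E592 and E604 and to 99.3, 50.1 and 72.8 CPM in N591, N592 and N604, and almost all of this came from Ccr2. The joint test of the pairs called 4 of 5 tested endothelial, 2 of 3 fibroblast and 1 of 3 mural markers, against 3.04% of all tested genes. It called 0 of 6 cardiomyocyte markers and 2 of 9 macrophage markers, Lyz2 and Cx3cr1. In edgeR's contrast of E604/N604 the log2 difference was -0.22 for Lyz2 (adjusted p = 0.0125) and 0.37 for Cx3cr1 (adjusted p = 0.0188). The part of other cells and of these differences in the result was not tested. In sorted bulk RNA, fewer cells of a type and less RNA per cell cannot be told apart.

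Markers of other leukocytes summed to at most 41.5 CPM per list. Plasmacytoid dendritic cell markers (6 genes, 3 at 0 everywhere, 0 tested) summed to 0.894 to 9.78 CPM. T and NK cell markers (7 genes, 4 at 0) summed to 0 to 4.82 CPM, neutrophil markers (5 genes, 1 at 0) to 0 to 5.61 CPM and B cell markers (4 genes, 1 at 0) to 0 to 6.71 CPM. Conventional dendritic cell markers (6 genes, 1 at 0) summed to 22.2 to 41.5 CPM. They stood at 39.1, 22.8, 33.3 and 41.5 CPM in the EcTM libraries and at 22.2, 22.3, 32.3 and 22.8 CPM in the non-EcTM libraries, in the same order of pairs. N604 was thus the highest non-EcTM library and E606 the highest EcTM library, where Itgax alone gave 31.6 CPM. Single markers differed from the sum. Flt3 stood at 12.9, 8.49, 18.0 and 8.69 CPM in the EcTM libraries and 5.56, 5.48, 9.60 and 3.96 CPM in the non-EcTM libraries, highest in E604/N604. Zbtb46 stood at 3.81, 2.23, 4.39 and 0.395 CPM and at 5.96, 5.48, 4.80 and 2.97 CPM in turn, lowest in E606/N606. The joint test of the pairs called 0 of the 3 tested markers of this list. The part of these leukocytes in the result was not tested.

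In what follows, levels are CPM scaled with TMM factors and are listed in the order of the pairs E591/N591, E592/N592, E604/N604 and E606/N606. They are compared between libraries and never between genes. A difference of a pair is that pair minus the mean of the other 3 pairs, on the log2 scale with its standard error (SE). Adjusted p-values are those of edgeR over 7667 genes, and coordinates are of GRCm38.p6.

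Among surface proteins, Siglec1 (chr2:131067801-131086778), the sialic acid receptor known as CD169 that is raised on interferon-exposed macrophages, passed in each contrast of the pairs, as did Slfn5 and Oasl2. Siglec1 stood at 821, 532, 1164 and 449 CPM in the EcTM libraries and 801, 568, 1047 and 421 CPM in the non-EcTM libraries. In each group E604/N604 was highest, E591/N591 next, then E592/N592, and E606/N606 lowest. All 4 contrasts of Siglec1 passed: 0.93 ± 0.0840 for E604/N604 (adjusted p = 1.02e-07), 0.34 ± 0.0866 for E591/N591 (adjusted p = 0.0430), -0.41 ± 0.0907 for E592/N592 (adjusted p = 0.0212) and -0.86 ± 0.0931 for E606/N606 (adjusted p = 3.54e-06). Bst2, known as tetherin, which holds budding viruses at the cell membrane, stood at 53.4, 50.5, 75.9 and 45.4 CPM in the EcTM libraries and 48.5, 36.0, 82.4 and 29.4 CPM in the non-EcTM libraries. It too was highest in E604/N604 in both groups, but did not pass in edgeR (E604/N604 difference 0.89 ± 0.25, adjusted p = 0.105), whereas DESeq2 and limma-voom each called it in a contrast of the pairs.

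Slfn5 (chr11:82951349-82964850), a member of the schlafen family of interferon-induced proteins, stood at 627, 391, 852 and 320.2 CPM in the EcTM libraries and 722, 356, 740.2 and 253 CPM in the non-EcTM libraries. The libraries of E604/N604 and E591/N591 were above those of E592/N592 and E606/N606 in both groups. Its 4 contrasts all passed, with 0.93 ± 0.0997 for E604/N604 (adjusted p = 1.44e-06), 0.63 ± 0.10 for E591/N591 (adjusted p = 5.16e-04), -0.52 ± 0.11 for E592/N592 (adjusted p = 0.0123) and -1.04 ± 0.11 for E606/N606 (adjusted p = 3.54e-06). Trim30a (chr7:104409025-104465193), a tripartite-motif protein that restrains Toll-like receptor signalling, stood at 195, 152, 286 and 83.7 CPM in the EcTM libraries and 277, 154, 295 and 139 CPM in the non-EcTM libraries. Its E604/N604 difference was 0.89 ± 0.15 (adjusted p = 7.54e-04) and its E606/N606 difference -0.999 ± 0.16 (adjusted p = 7.63e-04), and the former did not pass without E604 or without E606 and N606. Trim30a lies in a cluster of near-identical genes, and how the counting divided reads among them is not given in the sources used here.

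Rtp4 (chr16:23520219-23614222), a chaperone of membrane receptors induced by type I interferon, stood at 77.7, 47.8, 118 and 29.6 CPM in the EcTM libraries and 93.7, 48.5, 147 and 32.7 CPM in the non-EcTM libraries. In both groups the libraries fell in the order E604/N604, E591/N591, E592/N592 and E606/N606. Its E604/N604 difference was 1.38 ± 0.20 (adjusted p = 1.93e-04, and 0.0655 without N604) and its E606/N606 difference -1.39 ± 0.24 (adjusted p = 0.00150). Xaf1, a partner of an inhibitor of apoptosis, stood at 12.9, 13.4, 15.4 and 5.13 CPM in the EcTM libraries and 8.74, 12.1, 8.29 and 11.6 CPM in the non-EcTM libraries and showed no such order (unadjusted p of the joint test = 0.900). Ifi44, a cytoplasmic protein of the same programme, had 1, 2, 7 and 4 counts in the EcTM libraries and 3, 5, 8 and 3 in the non-EcTM libraries and was not tested.

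**Figure D2:**
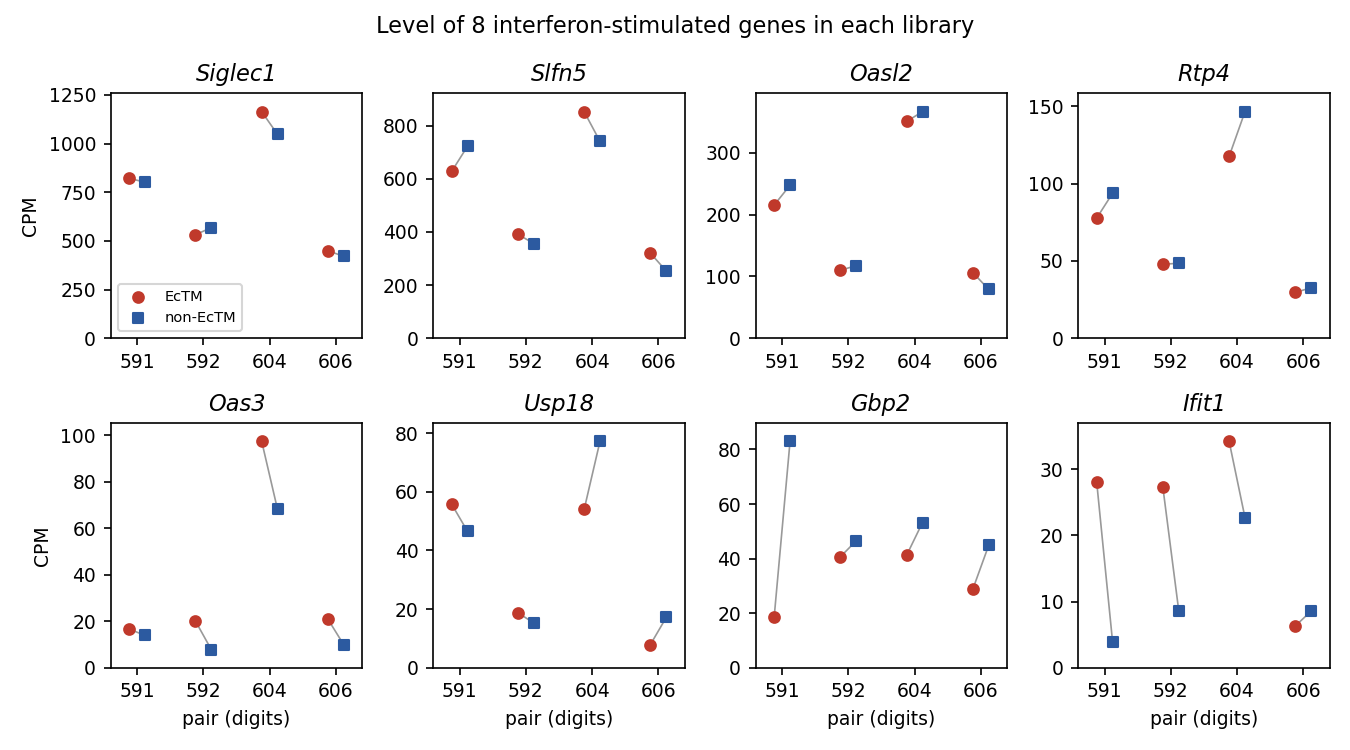
Level in CPM (vertical axes, from 0) of 8 interferon-stimulated genes against the pair of libraries, shown by the digits of its titles, with red circles for EcTM and blue squares for non-EcTM and a grey line joining the libraries of a pair. Siglec1, Slfn5, Oasl2, Rtp4, Oas3 and Usp18 are high in one or both of E604/N604 and E591/N591 in both groups, whereas Gbp2 is lower in EcTM in 4 of 4 pairs and Ifit1 differs most between groups at E591/N591.

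The OAS family makes oligoadenylates that activate RNase L, an enzyme that degrades viral and cellular RNA. Oas3 (chr5:120753098-120777684), the largest of them, stood at 16.7, 20.1, 97.4 and 20.9 CPM in the EcTM libraries and 13.9, 7.83, 68.0 and 9.90 CPM in the non-EcTM libraries. E604 and N604 stood far above the other 6, whose values ran from 7.83 to 20.9 CPM. Its E604/N604 difference of 2.51 ± 0.31 (adjusted p = 1.38e-05) was the largest of the 23 genes and ran from 2.33 to 2.70 over 11 fits that left out a pair or a library, all past the threshold. Without E604 and N604 the joint test of the remaining pairs did not call Oas3, and still called Siglec1, Slfn5, Oasl2, Rtp4, Trim30a, Usp18 and Ifi204.

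Oasl2 (chr5:114896926-114912245), a relative of the OAS enzymes, stood at 215, 109.9, 350.4 and 106 CPM in the EcTM libraries and 247, 117, 366 and 78.9 CPM in the non-EcTM libraries. The libraries of E604/N604 and E591/N591 were above those of E592/N592 and E606/N606 in both groups. The contrasts of Oasl2 gave 1.41 ± 0.14 for E604/N604 (adjusted p = 2.52e-07), 0.57 ± 0.14 for E591/N591 (adjusted p = 0.0345), -0.79 ± 0.16 for E592/N592 (adjusted p = 0.00722) and -1.19 ± 0.16 for E606/N606 (adjusted p = 6.01e-05). Oas1a (chr5:120896256-120907544), which has close copies in the same cluster on chromosome 5, stood at 59.5, 37.1, 92.5 and 29.6 CPM in the EcTM libraries and 34.6, 41.1, 78.9 and 37.0 CPM in the non-EcTM libraries. It passed in the contrast of E604/N604 (1.12 ± 0.26, adjusted p = 0.0265) but not in the joint test (adjusted p = 0.0631), in which DESeq2 and limma-voom called it, and in 7 of 11 fits that left out a pair or library the E604/N604 contrast did not pass, with differences of 0.99 to 1.27. Those were the fits without the pair E592/N592, without the pair E606/N606 and without E592, E604, E606, N592 or N604. Oasl1, which limits translation of Irf7, stood at 14.8, 6.70, 17.5 and 0 CPM in the EcTM libraries and 12.3, 8.61, 37.1 and 9.24 CPM in the non-EcTM libraries and was not called by edgeR or DESeq2 in the joint test (unadjusted p in edgeR = 0.0247), whereas limma-voom called it. A count of 0 in E606 allows up to 1.16 CPM (3 counts, counting error only).

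The IFIT proteins bind foreign RNA and stop its translation, and their genes lie side by side on chromosome 19. Ifit2 (chr19:34550550-34576534) stood at 30.5, 26.8, 72.8 and 12.2 CPM in the EcTM libraries and 42.9, 12.9, 73.7 and 19.1 CPM in the non-EcTM libraries. E604 and N604 were the highest of their group, and the E604/N604 difference was 1.70 ± 0.31 (adjusted p = 0.00286), with no pass without E604 or without N604. Ifit3 (chr19:34583119-34588982) stood at 41.9, 16.1, 48.2 and 1.58 CPM in the EcTM libraries and 15.5, 8.22, 41.0 and 9.24 CPM in the non-EcTM libraries, and E606 was the lowest library, at 4 counts. For Ifit3 the E604/N604 difference was 1.84 ± 0.45 (adjusted p = 0.0419), and in the leave-out fits it ran from 1.37 to 2.66 and passed in 3 of 11. Ifit3b is a near-identical copy of Ifit3, and reads shared between them may have been lost or divided. Ifit1 stood at 28.1, 27.3, 34.2 and 6.32 CPM in the EcTM libraries and 3.97, 8.61, 22.7 and 8.58 CPM in the non-EcTM libraries, did not pass in the joint test (unadjusted p = 0.0778), and had its lowest value in N591.

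Isg15 is a ubiquitin-like protein joined to other proteins after interferon, and Usp18 removes it and blocks the receptor. Usp18 (chr6:121245906-121270917) stood at 55.7, 18.8, 53.9 and 7.90 CPM in the EcTM libraries and 46.5, 15.3, 77.2 and 17.2 CPM in the non-EcTM libraries. The libraries of E604/N604 and E591/N591 (46.5 to 77.2 CPM) did not overlap those of E592/N592 and E606/N606 (7.90 to 18.8 CPM). Its differences were 1.55 ± 0.31 for E604/N604 (adjusted p = 0.00702) and -1.64 ± 0.38 for E606/N606 (adjusted p = 0.0278), and the E604/N604 contrast did not pass without E604, without N604, without E592 and N592, and without E606 and N606 (highest adjusted p 0.391). Isg15 stood at 7.62, 4.91, 8.77 and 0 CPM in the EcTM libraries and 13.9, 1.57, 21.4 and 6.27 CPM in the non-EcTM libraries, from 154 counts in all. The Isg15 difference of E604/N604, 1.58 ± 0.84, did not pass (adjusted p = 0.646), and the 0 in E606 allows up to 1.16 CPM.

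Of the sensors, Ddx58, which encodes RIG-I, a receptor for viral RNA, and Ifi204, a DNA-binding protein of the PYHIN family, differed between pairs in unlike ways. Ifi204 (chr1:173747293-173767069) stood at 292, 303, 282 and 146 CPM in the EcTM libraries and 301, 221, 284 and 139 CPM in the non-EcTM libraries. It was low in E606 and N606 (difference -0.97 ± 0.14, adjusted p = 1.64e-04), and the other 6 libraries lay at 221 to 303 CPM. Its E604/N604 difference of 0.35 ± 0.13 did not pass (adjusted p = 0.321), and Ifi204 has close relatives in a cluster on chromosome 1. Ddx58 (chr4:40203777-40239825) stood at 76.2, 70.6, 164 and 100.3 CPM in the EcTM libraries and 155, 79.8, 159.6 and 100 CPM in the non-EcTM libraries. The Ddx58 difference of E604/N604, 0.78 ± 0.19, passed narrowly (adjusted p = 0.0421; joint test 0.0475) and was lost in 9 of 11 leave-out fits, all but the fit without E591 and N591 and the fit without N591 alone. N591 was near N604, whereas E591 was far below E604. Ifih1, which encodes the RNA sensor MDA5, had 27, 4, 15 and 13 counts in the EcTM libraries and 2, 4, 9 and 11 in the non-EcTM libraries.

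Stat2 (chr10:128270498-128292853), 1 of 3 listed transcription factors of the pathway and the only one that could be tested, stood at 103, 90.7, 179 and 83.7 CPM in the EcTM libraries and 135, 112, 168 and 77.2 CPM in the non-EcTM libraries. It was highest in E604/N604 and lowest in E606/N606 in both groups. The E604/N604 difference was 0.82 ± 0.17 (adjusted p = 0.0110), and it did not pass without E604, without N604 or without E606 and N606. Irf7, the factor that amplifies interferon production, was listed at 0 in 8 of 8 libraries, and Irf9 had 7, 0, 2 and 0 counts in the EcTM libraries and 27, 0, 3 and 2 in the non-EcTM libraries. Both have 3 curated transcripts, and no level was read from them.

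The immunity-related GTPases attack the membranes of vacuoles that hold pathogens. Irgm1 (chr11:48865245-48871420), a regulator of that family, stood at 71.0, 78.6, 125 and 54.1 CPM in the EcTM libraries and 93.7, 62.6, 139.6 and 60.4 CPM in the non-EcTM libraries. For Irgm1 the E604/N604 difference was 0.93 ± 0.20 (adjusted p = 0.0125) and passed in 6 of 11 leave-out fits, not without E604, E606, N592, N604 or E606 and N606. Igtp stood at 55.3, 31.7, 44.7 and 32.8 CPM in the EcTM libraries and 28.6, 28.2, 56.7 and 28.7 CPM in the non-EcTM libraries and did not pass (E604/N604 difference 0.61 ± 0.31, adjusted p = 0.596). Gbp2, a guanylate-binding protein strongly induced by interferon gamma, stood at 18.6, 40.7, 41.2 and 28.8 CPM in the EcTM libraries and 83.0, 46.6, 53.2 and 44.9 CPM in the non-EcTM libraries and was not called between pairs (unadjusted p of the joint test = 0.788). Ifi47 had 0, 0, 0 and 0 counts in the EcTM libraries and 0, 0, 5 and 0 in the non-EcTM libraries, Gbp3 had 10, 0, 10 and 18 counts in the EcTM libraries and 0, 3, 0 and 3 in the non-EcTM libraries and Gbp7 had 0, 0, 2 and 0 counts in the EcTM libraries and 0, 0, 1 and 0 in the non-EcTM libraries, all from several curated transcripts.

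Rsad2, which encodes viperin, an enzyme that makes a chain-terminating nucleotide, and Cmpk2, a nucleotide kinase next to it on chromosome 12, did not pass between pairs in edgeR. Rsad2 stood at 36.7, 29.9, 34.6 and 11.8 CPM in the EcTM libraries and 21.0, 6.26, 34.9 and 5.94 CPM in the non-EcTM libraries, with E606/N606 lowest in both groups (E606/N606 difference -1.57 ± 0.48, adjusted p = 0.191; joint test unadjusted p = 0.00493). DESeq2 called Rsad2 in its joint test of the pairs, in which it called 15 of the genes, and limma-voom also called 15. Cmpk2 stood at 22.4, 22.3, 20.6 and 6.32 CPM in the EcTM libraries and 30.6, 3.91, 20.1 and 13.5 CPM in the non-EcTM libraries, with the lowest values in E606 and N592. Of the Mx GTPases, Mx1 had 11, 6, 0 and 0 counts in the EcTM libraries and 17, 6, 19 and 1 in the non-EcTM libraries and Mx2 was listed at 0. RefSeq annotates both as transcribed pseudogenes in this reference, and C57BL/6 mice are known to lack working Mx proteins.

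**Figure D3:**
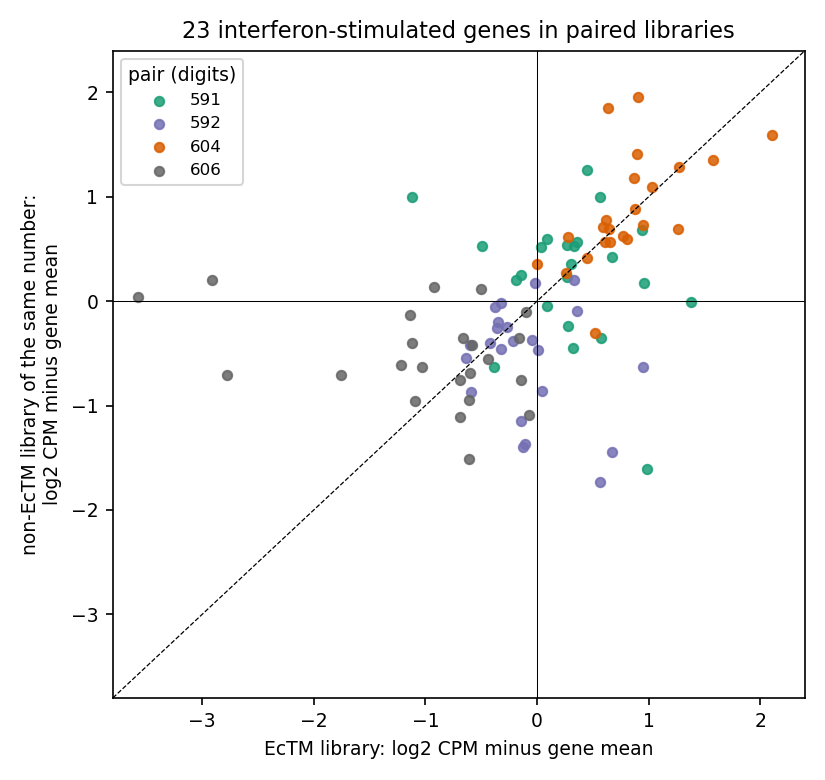
Each point is 1 of 23 interferon-stimulated genes in 1 pair of libraries, with the EcTM library's log2 CPM minus the gene's mean on the horizontal axis and that of the non-EcTM library of the same pair on the vertical axis; the dashed line marks equality. Points of E604/N604 lie mostly at the upper right and points of E606/N606 mostly at the lower left.

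The genes moved with one another from library to library. The median Pearson correlation of log2 CPM over 8 libraries was 0.69 for the 253 gene-by-gene combinations of the 23 genes, and 246 of these were above 0, whereas the median over combinations of all tested genes was -0.003. Libraries of 1 pair share whatever the pair stands for, and genes are not independent replicates, so the value is a description. Pair E604/N604 was the highest of 4 in both groups for 16 of the 23 genes, against 7.67% of all tested genes. Pair E606/N606 was the lowest of 4 in both groups for 10 of the 23 genes, against 6.36%. In 22 of the 23 genes the range between the means of the pairs was larger than the difference between the groups, as it was in 6904 of 7667 tested genes. The median range between pairs was 1.43 on the log2 scale for the 23 genes and 0.64 for all tested genes.

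EcTM and non-EcTM were then compared, which is the question of the study. No interferon-stimulated gene passed the test between the groups, and the genes lay on both sides of no change. In edgeR with the pair as a replicate block, 0 of 23 genes passed at an adjusted p under 0.05, and over all tested genes 1 of 7667 did (0.0130%). At an unadjusted p under 0.05 there were 5 genes, against 5.40% of all genes, 3 of them higher and 2 lower in EcTM. DESeq2 and limma-voom, with the same block, also called 0 of them, and called 17 and 19 genes over the whole table. The median log2 fold change over the 23 genes, EcTM minus non-EcTM, was 0.05, with a range from -1.07 to 1.13 and 13 genes above 0 and 10 below. The median SE of a gene was 0.28, so that a small difference of 1 gene could not have been seen at this depth and n. Without E604 the median was -0.36 and without N604 it was 0.30, in fits that then had no block.

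Within the pairs, the median difference of EcTM minus non-EcTM over the 23 genes was -0.05 in E591/N591, 0.17 in E592/N592, -0.01 in E604/N604 and -0.16 in E606/N606 on the log2 scale. EcTM was higher for 11, 14, 10 and 10 genes in turn. The groups did not overlap for 1 gene, Gbp2, against 2.70% of all tested genes. The direction was the same in 4 of 4 pairs for 4 genes, Gbp2, Oas3, Rtp4 and Trim30a, against 14.2% of all tested genes. Fold changes between groups were below 0 for 5 of 5 tested endothelial and 3 of 3 mural markers, with medians of -0.60 and -0.51. They were below 0 for 5 of 6 cardiomyocyte and 1 of 3 fibroblast markers, and for 3950 of 7667 tested genes. Of these markers 0 passed. The part of other cells in the differences between groups was not tested.

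**Figure D4:**
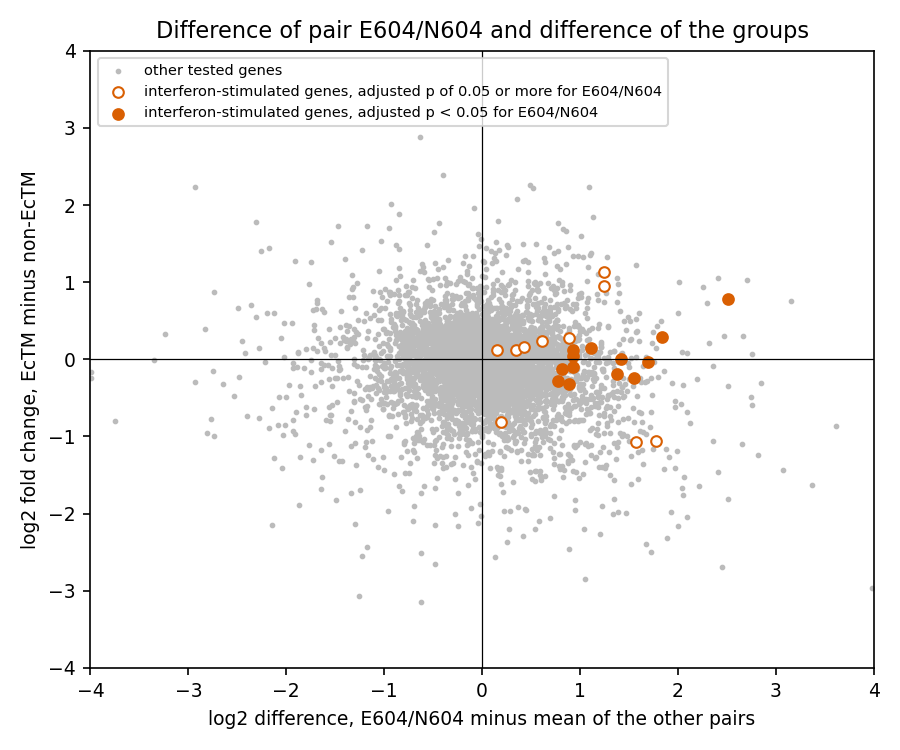
Each point is a tested gene, with its log2 difference of E604/N604 against the other pairs on the horizontal axis and its log2 fold change of EcTM against non-EcTM on the vertical axis; grey points are other genes, orange points the 23 interferon-stimulated genes, filled where the E604/N604 contrast passed. All 23 lie right of 0 and on both sides of the horizontal line; 6 genes fall outside the axes, which end at 4.

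The 8 genes with the smallest unadjusted p for the groups were Gbp2, Oas3, Rsad2, Trim30a, Ifit1, Oasl1, Ddx58 and Slfn5. Gbp2 averaged 32.3 ± 10.8 CPM over the EcTM libraries and 56.9 ± 17.8 CPM over the others (SD, n = 4 each), and every EcTM library was below every non-EcTM library. Its fold change was -0.81 ± 0.29 (log2 ± SE, unadjusted p = 0.0108, adjusted p = 0.778 in edgeR) and EcTM was lower in 4 of 4 pairs. Over 20 alternatives its fold change lay between -1.02 and -0.40, and its adjusted p was at least 0.380. The gap of Gbp2 was widest at E591/N591, with 18.6 CPM in E591 and 83.0 CPM in N591, where endothelial markers summed to 913 CPM. Trim30a averaged 179 ± 84.9 CPM over the EcTM libraries and 216 ± 81.2 CPM over the others, and it too was lower in EcTM in 4 of 4 pairs, with overlapping groups (log2 fold change -0.32 ± 0.13, adjusted p = 0.897, and -0.59 to -0.03 over 19 alternatives).

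Oas3 averaged 38.8 ± 39.1 CPM over the EcTM libraries and 24.9 ± 28.9 CPM over the others and was the higher of the pair in EcTM 4 times of 4 (0.78 ± 0.31, adjusted p = 0.871), although the spread over pairs was as large as its mean. Its direction turned when E604 was left out and no block was used, to -0.36, and the highest value over 20 alternatives was 1.88. Rsad2 (0.95 ± 0.39, adjusted p = 0.874) and Ifit1 (1.13 ± 0.49, adjusted p = 0.897) were higher in EcTM in 3 of 4 pairs each, and over 20 alternatives ran from 0.45 to 1.35 and from 0.64 to 1.75. In the fourth pair, Rsad2 stood at 34.6 CPM in E604 and 34.9 CPM in N604, and Ifit1 at 6.32 CPM in E606 and 8.58 CPM in N606. For Ifit1 the gap was widest at E591/N591, with 28.1 CPM in E591 and 3.97 CPM in N591. Oasl1 (-1.06 ± 0.64, with E606 at 0), Ddx58 (-0.28 ± 0.18) and Slfn5 (0.12 ± 0.09) had adjusted p of 0.941, 0.941 and 0.964. Over the alternatives Oasl1 ran from -1.56 to -0.05 and Ddx58 from -0.58 to -0.04. The fold change of Slfn5 fell below 0 when E604, N592 or N606 was left out without the block, to -0.21, -0.059 and -0.15.

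The rest of the pathway was read from lists of its ligands, receptors, kinases, regulatory factors, sensors and further targets. Of the 17 interferon genes listed, 16 were at 0 in 8 of 8 libraries, Ifnb1 and Ifng among them. Ifnk, interferon kappa, had 8, 0, 11 and 0 counts in EcTM and 3, 3, 11 and 1 in non-EcTM, too few for a test. A count of 0 allows up to 1.02 to 1.39 CPM per library for a gene that the table counts in full. The cells were sorted macrophages, so RNA of interferons made elsewhere in the heart would not be seen.

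No receptor gene passed. Of 6 genes 5 were tested and 0 passed in the joint test of the pairs or between groups. Ifnar1, the signalling chain of the type I receptor, stood at 299.7, 389.6, 401 and 363 CPM in the EcTM libraries and 396, 437, 364 and 327 CPM in the non-EcTM libraries (E604/N604 difference 0.0609 ± 0.12, adjusted p = 0.964). Ifnar2 had 90 counts in all and Ifnlr1, of the lambda receptor, had 1. Ifngr2, of the receptor for interferon gamma, stood at 259, 193, 245 and 299.7 CPM in the EcTM libraries and 237, 217, 211 and 249.9 CPM in the non-EcTM libraries, and Il10rb, shared with the lambda receptor, at 419, 348, 353 and 386 CPM in the EcTM libraries and 417, 303, 401 and 356 CPM in the non-EcTM libraries. The values of Ifnar1, Ifngr2 and Il10rb overlapped between E604/N604 and the other pairs.

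Of the kinases and STATs only Jak1 was tested, at 751, 864, 869 and 835 CPM in the EcTM libraries and 728, 762, 727 and 784 CPM in the non-EcTM libraries, and it did not pass (E604/N604 difference 0.0164 ± 0.0856, adjusted p = 0.992). Stat3 and Tyk2 were listed at 0 in 8 of 8 libraries. As for the other genes at 0, no level was read from this. Of 7 other interferon regulatory factors 3 were tested and 0 passed. Irf1 stood at 42.4, 59.9, 41.7 and 39.9 CPM in the EcTM libraries and 42.9, 49.3, 62.8 and 42.6 CPM in the non-EcTM libraries, Irf2, which counters it, at 388, 439, 337 and 371 CPM in the EcTM libraries and 409, 362, 340.2 and 349 CPM in the non-EcTM libraries, and Irf8, a macrophage lineage factor, at 5.24, 2.68, 17.5 and 7.90 CPM in the EcTM libraries and 12.7, 4.31, 12.2 and 14.9 CPM in the non-EcTM libraries. Of 6 brakes on the pathway 4 were tested (Socs3, Ptpn2, Pias1 and Ptpn6) and 0 passed. Socs3, an inhibitor of cytokine receptor kinases, stood at 2624, 2486, 2189 and 2267 CPM in the EcTM libraries and 2168, 2505, 1849.8 and 2084 CPM in the non-EcTM libraries (E604/N604 difference -0.22 ± 0.0669, adjusted p = 0.133), and was thus lowest, not highest, in E604/N604.

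Among sensors and their adaptors 1 of 9 tested genes passed the joint test, Zbp1, a sensor of Z-form nucleic acids that is itself induced by interferon. Zbp1 stood at 21.0, 22.8, 71.5 and 3.55 CPM in the EcTM libraries and 59.2, 18.0, 95.1 and 15.8 CPM in the non-EcTM libraries, with differences of 2.12 ± 0.33 for E604/N604 (adjusted p = 4.29e-04, and 0.140 without E604) and -2.18 ± 0.43 for E606/N606 (adjusted p = 0.00673). Tlr9, Myd88 and Aim2, which sense DNA or relay Toll-like receptor signals, did not pass. Tlr9 stood at 222, 219.8, 202 and 182 CPM in the EcTM libraries and 144, 172, 174 and 157 CPM in the non-EcTM libraries and Myd88, an adaptor, at 204, 294, 219 and 220.3 CPM in the EcTM libraries and 172, 259, 213 and 211 CPM in the non-EcTM libraries. Aim2 stood at 31.9, 47.8, 58.8 and 50.5 CPM in the EcTM libraries and 11.1, 32.9, 48.4 and 45.2 CPM in the non-EcTM libraries. Between the groups 0 of the 9 passed. The groups did not overlap for 1 of the 9, Tlr9, against 2.70% of all tested genes (0.35 ± 0.13, unadjusted p = 0.00997, adjusted p = 0.773 in edgeR). EcTM was higher in 4 of 4 pairs for Tlr9, Myd88 and Aim2, and 14.2% of all tested genes kept 1 direction in 4 pairs.

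A list of 66 further interferon-stimulated genes outside the set had 46 tested genes. The joint test called 15 of the 46 (32.6%, against 3.04% of all tested genes), E604/N604 was higher for 11 and lower for 0, and E606/N606 was lower for 4 and higher for 0. In the contrast of E604/N604, 42 of the 46 differences were above 0, with a median of 0.73, and in that of E606/N606 the median was -0.53. Trim12a passed in the joint test (adjusted p = 0.0181) with the signs turned. Its differences were -0.64 for E604/N604 and 0.64 for E606/N606, neither past the threshold. Between groups 0 of 46 passed and the median log2 fold change was -0.04. Some belong to families of the 33 genes, so that the lists are not independent of each other.

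Lgals3bp, a secreted glycoprotein, stood at 459.7, 336, 855 and 339.6 CPM in the EcTM libraries and 607, 299.8, 785 and 297 CPM in the non-EcTM libraries (E604/N604 difference 1.12 ± 0.11, adjusted p = 1.84e-07). E604 and N604 were above the other 6. Dtx3l, a ubiquitin ligase (0.85 ± 0.12, adjusted p = 6.03e-05), and Lgals3bp passed in the E604/N604 contrast in each of 18 alternatives. Helz2 (1.17 ± 0.21, adjusted p = 0.00207), a helicase, Eif2ak2 (0.83 ± 0.17, adjusted p = 0.00784), the RNA-activated kinase PKR, Fcgr1 (0.75 ± 0.13, adjusted p = 0.00125), the high-affinity receptor for IgG, Parp14 (0.61 ± 0.0910, adjusted p = 1.95e-04) and Parp12 (0.72 ± 0.15, adjusted p = 0.0122) were higher too. Without E604 none of these 5 passed (adjusted p 0.0892 to 0.754), and Helz2, Eif2ak2 and Parp12 did not pass without N604 either, with adjusted p of 0.0668, 0.0668 and 0.449. Helz2 and Parp12 did not pass without E592 and N592, Eif2ak2 and Parp12 without E606 and N606, nor Parp12 without N606. Znfx1, an RNA helicase, passed in the joint test and for E606/N606 (-0.62 ± 0.12, adjusted p = 0.00620) but not for E604/N604 in edgeR (0.43 ± 0.11, adjusted p = 0.0623), where it passed in DESeq2 (adjusted p = 0.0110) and limma-voom (adjusted p = 0.0171).

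**Figure D5:**
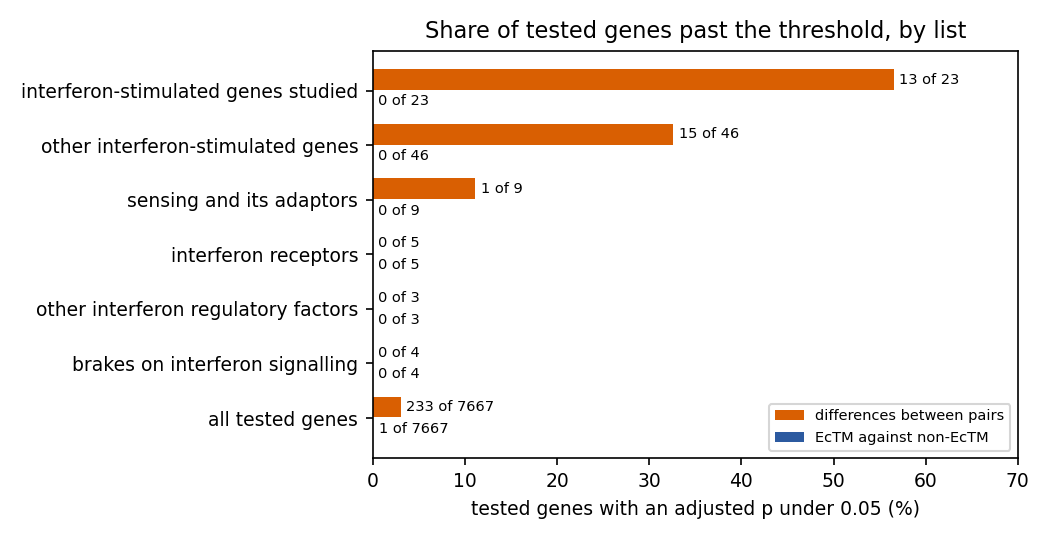
Share of tested genes past an adjusted p of 0.05, in percent, for each list, with orange bars for differences between pairs and blue bars for EcTM against non-EcTM; the figures at the bars give genes passed of genes tested. The joint test of the pairs passed 13 of 23 and 15 of 46 genes in the lists of interferon-stimulated genes and 0 or 1 in each other pathway list, and the group test passed 0 in each pathway list. Lists of cell type markers, some of which also passed between pairs, are not shown.

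The 10 genes outside the set whose levels over the 8 libraries were most like the mean of the 23 genes were Slc7a8, Lifr, Wipi2, Sdc3, Parp14, Tor1aip2, Eif2ak2, Fcgr1, Nup54 and Samd9l, with Pearson correlations of 0.936 to 0.956 over 8 libraries. Parp14, Eif2ak2, Fcgr1 and Samd9l were on the list of further interferon-stimulated genes. Slc7a8, an amino acid transporter, stood at 589, 559.8, 652 and 529 CPM in the EcTM libraries and 598, 576, 656 and 548 CPM in the non-EcTM libraries, a small range in the same order. Sdc3, a heparan sulfate proteoglycan, stood at 1595, 1365, 1850.0 and 1253 CPM in the EcTM libraries and 1514, 1198, 1880.3 and 1119 CPM in the non-EcTM libraries. These 10 were taken for their likeness from tested genes whose mean log2 CPM was 3 or more, and with 8 libraries a likeness of this size is a description only.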

How the data were processed

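Macrophages were sorted from mouse hearts, their total RNA was taken up on columns, and a stranded kit for very small inputs gave the libraries, per the labels' protocols. Per the submitters' processing notes, bcl2fastq 2.17, TopHat, DESeq2 and R 3.2 were used with mm10. How reads were counted, by which program and annotation and with which strand setting, is not given in the sources used here. As deposited, the table holds whole-number counts per gene, not normalized, for 8 libraries (4 EcTM, 4 non-EcTM), and log2 values deposited by the authors under headers naming CPM, which were not used.

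Groups and pairs were taken from the titles. The members and all lists were chosen with earlier results of these data known. After removal of the group means, paired libraries correlated across genes at Pearson's r of 0.12 to 0.19, above the minimum of 0.1 set for pairing, and other combinations at -0.13 to 0.05.

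Genes were kept with edgeR's filterByExpr, which left 7667 with 99.3% of the counts. A quasi-likelihood model of edgeR 4.0.16 (TMM factors, F-test, R 4.3.3) was fitted with pair and group as terms. The group, the 4 pairs jointly, and each pair against the mean of the other 3 were tested, with Benjamini-Hochberg adjustment over all tested genes and a threshold of 0.05. In this fit the biological coefficient of variation was 0.304. Log2 CPM used a prior count of 2. The scripts were tested on simulated counts. All tests are two-sided.

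Named are all genes past a threshold, the 8 with the smallest unadjusted p between groups, and up to 4 per other list (8 for further interferon-stimulated genes). Alternatives were DESeq2 1.42.0, limma-voom (limma 3.58.1), 2 other scalings, 2 other filters, genes with 1 curated transcript, no replicate block, pair without group, and leaving out libraries or pairs; leaving out whole pairs in the tests of pairs was chosen after seeing the data. Entrez numbers matched 24447 of the 24516 genes to RefSeq annotation of GRCm38.p6, named mm10 by UCSC, the source of coordinates and promoter windows. A stated limit of 3 counts for a gene at 0 covers counting error only. Plots used matplotlib 3.10.9 (Python 3.11.15).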

Additional observations from a re-analysis of the deposited data

Results flagged for a closer look

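Each of the 23 tested genes was screened in each group of 4 libraries for a library that stood apart from the other 3 by Dixon's criterion on the gap to the nearest of them. Of 46 such groups 7 held one. The criterion flags about 1 in 20 where values are normal and groups independent. The genes moved together over the same libraries and other genes were not screened, so no excess was read from this count. E604 or N604 was the high library in 5 of the 7 and E606 the low library in the other 2. Oas3 stood at 97.4 CPM in E604, where the other EcTM libraries had 16.7 to 20.9 CPM, and at 68.0 CPM in N604, where the other non-EcTM libraries had 7.83 to 13.9 CPM. Oas1a stood at 78.9 CPM in N604, with the others at 34.6 to 41.1 CPM. Oasl1 stood at 37.1 CPM in N604, with the others at 8.61 to 12.3 CPM. Igtp stood at 56.7 CPM in N604, with the others at 28.2 to 28.7 CPM. Ifi204 stood at 146 CPM in E606, with the others at 282 to 303 CPM. Cmpk2 stood at 6.32 CPM in E606, with the others at 20.6 to 22.4 CPM.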

How the results depend on the processing

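The count of genes called between EcTM and non-EcTM was 0 in 20 of 20 alternatives, that without the replicate block included, where the median log2 fold change was 0.06. This median ran from 0.001 to 0.11 over the other settings and from -0.36 (without E604) to 0.30 (without N604) when a pair or a library was left out. Of 158 alternative fold changes of 8 named genes between groups, 4 reversed, all with 1 library left out and no replicate block: Oas3 to -0.36 and Slfn5 to -0.21 without E604, and Slfn5 to -0.059 without N592 and -0.15 without N606. The cause was not tested. The joint test of the pairs called 9 to 15 genes over the other settings and 7 to 14 in the leave-out fits. At least 1 contrast of a pair called 10 to 16 and 7 to 14. The count higher in E604/N604 was 9 to 15 and 5 to 14, and the count lower in E606/N606 was 5 to 10 and 3 to 8. Of 408 alternative differences of E604/N604 for 23 named genes, 348 kept their direction and side of the threshold, 55 lost and 5 gained the threshold, and 0 reversed. With 1 curated transcript 17 of the genes could be tested and the joint test called 9. With 2 libraries per pair and a median SE of 0.28 between groups, small differences of single genes are beyond reach.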
